A study of Homo sapiens with 18 samples.

Results

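MDA-MB-231 cells depleted of PRMT5 were compared directly with MDA-MB-231 cells depleted of HP1γ, both without dexamethasone. The comparison used 6 of the 18 RNA-seq libraries, 3 labelled siPRMT5 Eth and 3 labelled siHP1γ Eth, and no library of the non-specific siRNA (siNS) entered it. The study depleted PRMT5, HP1γ or neither by siRNA, gave the cells dexamethasone (Dex), a synthetic glucocorticoid, at 100 nM or ethanol vehicle (Eth) for 8 h, and sequenced total RNA in 3 replicates per condition. It asked which genes depend on the 2 proteins as partners of the glucocorticoid receptor (GR).

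All 6 libraries came from MDA-MB-231, an established line of triple-negative breast cancer cells with a mesenchymal shape, which carries no engineered allele here. Each had received an siRNA pool and vehicle ethanol, with 0 nM Dex, so transfection and ethanol were shared and the target was the only labelled difference. Each target was depleted by 1 SMART-pool of siRNAs, and effects of the loss of the target and of other activities of its pool cannot be told apart. The study describes the replicates as biological and the labels do not name separate cultures, so p-values measure the spread between these samples, part of which may be technical. The 3 siNS Eth libraries lie outside the contrast, and their levels are given as a reference. All 18 libraries share the filter, the scaling and the estimate of spread behind the p-values.

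PRMT5 is the main enzyme that places symmetric dimethyl marks on arginines. It works in a complex with MEP50, the product of WDR77, and methylates histones, the Sm proteins that form the core of spliceosomal snRNPs, and other RNA-binding proteins. HP1γ, encoded by CBX3, is a chromatin reader that binds methylated lysine 9 of histone H3 through its chromodomain, is found both in heterochromatin and along transcribed genes, and has 2 relatives, HP1α (CBX5) and HP1β (CBX1).

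The 6 libraries held between 8682992 and 10874249 counts, and 15298 genes passed the filter on low counts. Levels are given as CPM, counts per 1000000 counts of a library, scaled between libraries by the TMM method except for the markers that follow. Replicates of a group differed by more than sampling noise in every pair, so none was merged. The siPRMT5 and siHP1γ libraries lay at opposite ends of the first principal component, which held 70.9% of the variance of the 6 libraries, and siPRMT5 replicate 2 stood apart from the other two siPRMT5 libraries on the second, which held 8.84%. Markers of the line were checked in each library. VIM, the mesenchymal filament gene, was at 6689 to 9529 unscaled CPM, CD44 at 687 to 742 CPM and EGFR at 135 to 243 CPM, whereas S100A4, listed as a marker of the line, reached only 2.26 to 3.47 CPM. Of 7 epithelial or receptor markers expected to be low, CDH1, PGR and GRHL2 had 0 counts in all 6 libraries, and ESR1 had at most 1. ESRP1 had 1 to 9 counts, whereas ERBB3, with 32 to 60, and EPCAM, with 96 to 143, were detected in every library. The summed levels of 6 leukocyte, 4 endothelial and 4 fibroblast markers stayed at or below 3.56, 6.63 and 4.87 CPM in every library, with CD3E, DCN and LUM at 0. Leukocyte markers summed to 1.84 to 2.49 CPM in siPRMT5 and 2.58 to 3.56 CPM in siHP1γ, fibroblast markers to 1.39 to 3.79 CPM and 4.42 to 4.87 CPM, and GATA3, the only detected one of 4 markers of other epithelium, was at 2.71 to 3.19 and 5.49 to 7.63 CPM, so all 3 moved with the groups at a low level, and their part in the results was not tested.

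Each siRNA had lowered its own target, and each target served as the other group's reference. PRMT5 (chromosome 14, 22920525 to 22929408, minus strand, hg38) was at 8.37, 7.75 and 6.10 CPM in the siPRMT5 libraries and at 211, 206 and 209 CPM in the siHP1γ libraries. CBX3 (chromosome 7, 26201162 to 26213607, plus strand) was at 224, 218 and 229 CPM in the siPRMT5 libraries and at 9.22, 9.91 and 10.5 CPM in the siHP1γ libraries. The groups were far apart for both genes. The gene not targeted lay below the whole siNS range, which was 226 to 262 CPM for PRMT5 and 234 to 274 CPM for CBX3. Its mean was 83.9% of the siNS mean for PRMT5 in siHP1γ and 87.6% for CBX3 in siPRMT5. The log2 fold change of siPRMT5 over siHP1γ was -4.82 for PRMT5 (SE 0.10, adjusted p = 1.2e-21) and 4.50 for CBX3 (SE 0.11, adjusted p = 1.7e-20), by edgeR's quasi-likelihood test with Benjamini-Hochberg adjustment over all genes tested, the test behind every adjusted p given here. An exact two-sided permutation test of 3 against 3 libraries gave p = 0.1 for each target, the smallest that this design allows.

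Among relatives of the targets, the gene of HP1β was lower without PRMT5 than without HP1γ. CBX1 was at 67.0, 67.0 and 69.5 CPM in siPRMT5 and at 109, 118 and 115 CPM in siHP1γ, with 128 to 134 CPM in siNS, a log2 fold change of -0.75 (SE 0.07, adjusted p = 1.8e-09). CBX5, encoding HP1α, differed by -0.21 (adjusted p = 0.028), a call lost in 4 of 14 alternative settings. WDR77, the MEP50 gene, was at 24.8 to 28.9 CPM in siPRMT5 and 18.8 to 24.5 CPM in siHP1γ, both below the 33.4 to 37.0 CPM of siNS (log2 fold change 0.33, adjusted p = 0.01, and 0.077 without siHP1γ replicate 1). The pseudogene CBX3P9, named after its values were seen, moved with its parent, from 0.94 CPM on average in siHP1γ to 35.8 CPM in siPRMT5, and reads of a gene and its copy could not be separated.

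**Figure D1:**
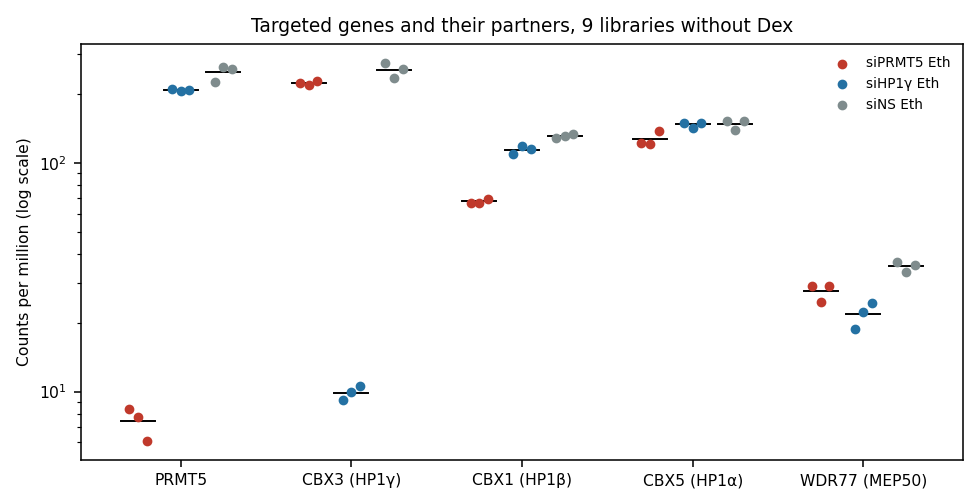
CPM on a log scale of PRMT5, CBX3 and 3 related genes in the 9 libraries without Dex, 1 point per library with a bar at the group mean. PRMT5 is low only in the siPRMT5 libraries and CBX3 only in the siHP1γ libraries, while CBX1 is lowest in siPRMT5 and WDR77 is below siNS in both.

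The direct contrast between the 2 depletions was broad. Of 15298 genes tested, 7398 (48.4%) differed at an adjusted p under 0.05, of which 3580 (23.4%) were higher in siPRMT5 and 3818 (25%) were lower. Most differences were small: the median size among the called genes was 0.54 on the log2 scale, and 732 of them differed by less than 1.2-fold. With a fold of at least 2 in addition, 480 genes (3.14%) were higher in siPRMT5 and 906 (5.92%) were lower, 1386 (9.06%) in all. At 1.5-fold the numbers were 1309 (8.56%) and 2025 (13.2%), 3334 (21.8%) in all. The 3 siPRMT5 libraries lay wholly above the 3 siHP1γ libraries for 27.2% of the genes tested and wholly below for 29.2%, which is 56.4% with no overlap. Since no untreated library enters the contrast, a gene that is higher in siPRMT5 may be raised without PRMT5 or lowered without HP1γ, and the siNS levels printed beside the values show on which side each depletion lay.

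The 12 genes most above in siPRMT5, among those with a mean of at least 5 CPM and no overlap between groups, were VIPR1, BTG3, PDE7B, SESN3, OAS2, SCML1, SCG2, PIK3R3, ADAMTS15, PLLP, BMF and SDHAF2, with log2 fold changes from 2.89 down to 2.06. VIPR1 (chr3:42489299-42537573), a receptor for vasoactive intestinal peptide, was at 19.9, 17.1 and 19.4 CPM in siPRMT5, at 2.23, 2.90 and 2.43 CPM in siHP1γ, and at 2.14 to 3.09 CPM in siNS (log2 fold change 2.89, SE 0.16, adjusted p = 2.2e-13). Only the siPRMT5 libraries were high for this gene. PIK3R3, a regulatory subunit of PI 3-kinase, had the same arrangement, with 46.4, 44.1 and 56.1 CPM in siPRMT5, 10.4, 9.45 and 8.20 CPM in siHP1γ and 8.56 to 11.3 CPM in siNS (2.39, SE 0.12, adjusted p = 2.5e-14). BMF, a BH3-only gene that promotes apoptosis, was at 28.3, 27.5 and 34.8 CPM against 6.89, 7.48 and 6.39 CPM (2.13, adjusted p = 3.7e-12), with siNS below both at 2.98 to 4.04 CPM. SESN3, a sestrin of the stress response, and SCG2, a granin of secretory vesicles, were likewise high in the siPRMT5 libraries only, with log2 fold changes of 2.74 and 2.50.

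In 3 of these 12 genes, BTG3, SCML1 and SDHAF2, the siNS mean was nearer to siPRMT5 than to siHP1γ on the log2 scale. BTG3 (chr21:17593653-17612945), an antiproliferative gene of the BTG/TOB family, was at 39.9, 33.1 and 36.9 CPM in siPRMT5 and at 5.20, 6.17 and 4.05 CPM in siHP1γ, with 27.9 to 31.6 CPM in siNS (log2 fold change 2.84, SE 0.13, adjusted p = 7.8e-15). SCML1, a gene of the Polycomb-related SCM family, was at 113, 119 and 116 CPM in siPRMT5, 17.1, 20.5 and 20.5 CPM in siHP1γ and 80.5 to 98.7 CPM in siNS (2.58, SE 0.12). For both genes the siHP1γ libraries stood alone at the low end. SDHAF2, an assembly factor of succinate dehydrogenase, was at 12 to 12.8 CPM in siPRMT5 and 2.34 to 4.24 CPM in siHP1γ.

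The 12 genes most below in siPRMT5 were PAEP, CA12, FGFRL1, MYPN, ZNF385A, APCDD1L, SFXN2, NCK2, CHMP3, CYB5R3, EHD2 and MYH16, with log2 fold changes from -3.86 to -2.54. PAEP (chr9:135561756-135566955), the secreted lipocalin glycodelin, was at 3.43, 2.58 and 3.40 CPM in siPRMT5 and at 55.9, 41.5 and 40.9 CPM in siHP1γ, a 14.5-fold difference (SE of the log2 value 0.16, adjusted p = 1.1e-15), and at 21.5 to 27.7 CPM in siNS. CA12, a membrane carbonic anhydrase, was at 2.58 to 2.80 CPM against 29.0 to 33.8 CPM, with 13.9 to 15.1 CPM in siNS (log2 fold change -3.54, SE 0.13, adjusted p = 3.7e-17). For PAEP and CA12 the siNS libraries lay between the 2 depletions, below siHP1γ and above siPRMT5.

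For most of this group the siHP1γ level was near that of siNS. CHMP3 (chr2:86503430-86563479), a subunit of the ESCRT-III membrane scission machinery, was at 16.1, 15.5 and 14.5 CPM in siPRMT5, 98.2, 98.8 and 103 CPM in siHP1γ and 97.3 to 107 CPM in siNS (-2.70, SE 0.10, adjusted p = 2.9e-17). CYB5R3 (chr22:42615730-42720870), the cytochrome b5 reductase, was at 69.0 to 81.9 CPM, 483 to 502 CPM and 407 to 466 CPM in the same order (-2.68, SE 0.08, adjusted p = 1.7e-18). NCK2, an SH2/SH3 adaptor, and FGFRL1, an FGF receptor relative without a kinase domain, differed by -2.83 and -3.22. APCDD1L and MYH16 were the exceptions, with siNS means nearer to siPRMT5 on the log2 scale: APCDD1L was at 1.61 to 2.10 CPM in siPRMT5, 15.2 to 18.1 CPM in siHP1γ and 3.06 to 4.45 CPM in siNS. Exons of 14 of the 24 leading genes overlap those of another annotated gene, and the strand setting of the counting is not given in the sources used here, so their counts may hold reads of the neighbour.

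**Figure D2:**
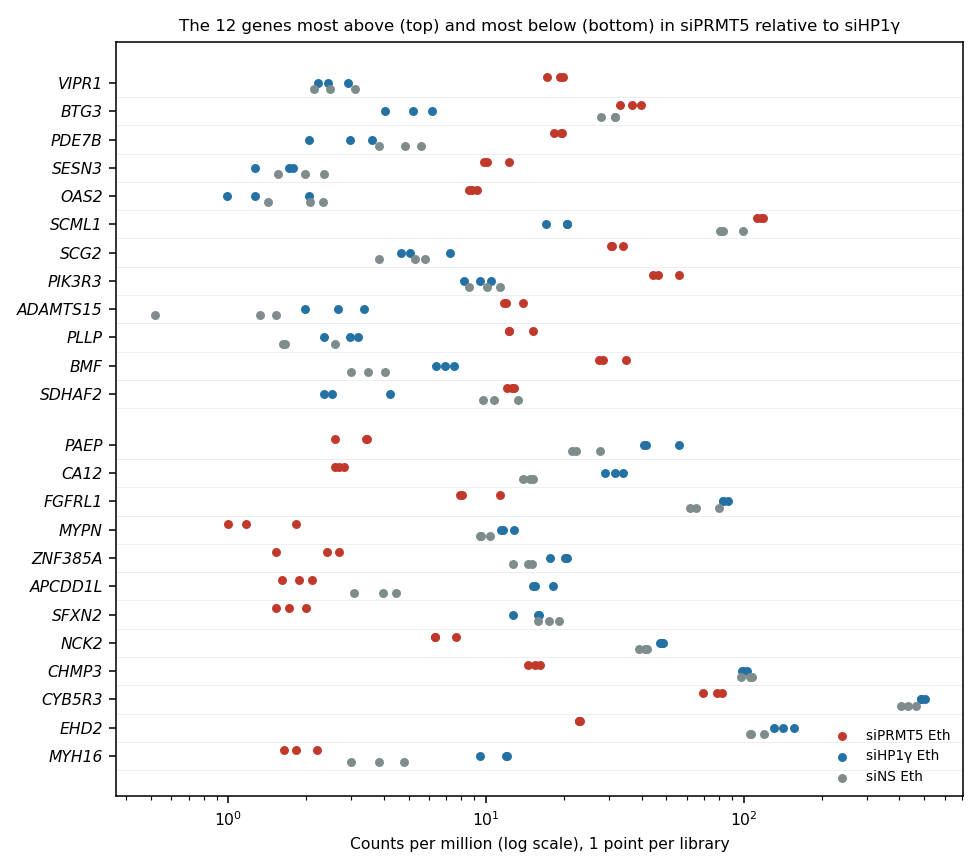
CPM on a log scale of the 12 genes most above and the 12 most below in siPRMT5 relative to siHP1γ, 1 point per library, with siNS as reference. The siPRMT5 and siHP1γ points are separate in every row, and on this scale the siNS mean lies nearer to siHP1γ for 19 of the 24 genes and nearer to siPRMT5 for 5.

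Genes of the interferon response had the highest median of the lists, toward siPRMT5. Interferon-stimulated genes encode antiviral effectors and sensors of foreign nucleic acid, and in many of them an interferon-stimulated response element (ISRE) in the promoter is bound by STAT and IRF factors. Of 62 listed genes, 44 passed the filter, and 35 of those (79.5%, beside 23.4% of all genes tested) were higher in siPRMT5, while 3 were lower and 6 were not called. Their median log2 fold change was 0.68, beside -0.00 over all genes tested. Some higher members, such as OAS2, were low in siHP1γ and passed the filter through the libraries where they were high, so they could hardly be called lower. When at least 10 counts were asked in every library, 29 of 37 tested members were higher and 3 lower. OAS2, an oligoadenylate synthetase, was at 9.23, 8.81 and 8.60 CPM in siPRMT5 and at 1.27, 2.06 and 0.99 CPM in siHP1γ, a log2 fold change of 2.61 (SE 0.22, adjusted p = 2.5e-10). OASL, a relative of the same family, was at 48.9, 50.2 and 51.3 CPM against 13.7, 15.8 and 13.6 CPM (1.80, adjusted p = 1.1e-12), and IFIH1, the RNA sensor MDA5, at 42.4, 43.4 and 39.0 CPM against 12, 12.2 and 13.1 CPM (1.74, adjusted p = 1.4e-12). None of these groups overlapped. The siNS libraries were at 12.8 to 17.2 CPM for IFIH1 and at 25.7 to 35.8 CPM for OASL, so the second lay between the 2 depletions.

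The sensor genes did not move as 1 block. DDX58, the older name of RIGI, which encodes the RNA sensor RIG-I, was lower in siPRMT5 (104, 115 and 99.3 CPM against 151, 155 and 143 CPM, -0.50, adjusted p = 1.8e-05), although its relative IFIH1 was higher. IFIT5 and PARP12 were the other two lower members, at -0.33 and -0.37, and the call for PARP12 was lost in 2 of 14 alternative settings. IFIT1, named after its values were seen, averaged 327 CPM in siPRMT5, 113 CPM in siHP1γ and 221 CPM in siNS (1.53). In bulk RNA, a larger share of cells that express these genes and more RNA per cell cannot be told apart.

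Promoter sequence was read for these genes because most of them moved together. RefSeq (GRCh38.p14) gave windows of 250 bases before to 50 bases after the start for 32 of the 44 genes. The core of the ISRE, 2 copies of GAAA with 2 bases of any kind between them, occurred on either strand in at least 1 window of 22 of the 32 (68.8%), beside 3.88% of the 10035 tested genes with a window. The share was 17 of 25 among higher members and 2 of 2 among lower ones, IFIT5 and PARP12, so the letters were present in members that moved in either direction. IFIH1 (chr2:162318635-162318934, minus strand) and IFIT5 (chr10:89414318-89414617, plus strand) are printed 5′ to 3′ as a higher and a lower member, with the matches in capitals, 3 in each, of which 2 overlap in IFIH1.
IFIH1: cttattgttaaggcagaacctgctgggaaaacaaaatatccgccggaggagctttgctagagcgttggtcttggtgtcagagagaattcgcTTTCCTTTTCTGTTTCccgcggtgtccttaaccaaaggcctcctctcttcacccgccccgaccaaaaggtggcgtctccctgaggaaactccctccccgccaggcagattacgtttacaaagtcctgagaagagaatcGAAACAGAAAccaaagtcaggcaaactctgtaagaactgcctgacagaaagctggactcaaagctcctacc
IFIT5: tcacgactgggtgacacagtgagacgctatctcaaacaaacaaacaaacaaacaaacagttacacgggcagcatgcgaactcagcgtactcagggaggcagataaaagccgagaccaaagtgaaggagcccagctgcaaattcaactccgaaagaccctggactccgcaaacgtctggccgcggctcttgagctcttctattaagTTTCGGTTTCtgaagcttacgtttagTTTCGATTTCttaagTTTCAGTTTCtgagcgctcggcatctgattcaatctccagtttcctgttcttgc

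Mitotic genes were mostly higher in siPRMT5. They are transcribed late in the cell cycle, and many carry a cell cycle genes homology region (CHR), the element bound by the DREAM and MuvB complexes, near the start. Of 47 tested genes of 48 listed, 40 (85.1%, beside 23.4% of all genes tested) were higher in siPRMT5 than in siHP1γ. Of the rest, 2 were lower and 5 were not called, and the median log2 fold change of the list was 0.51. KIF20A, a kinesin of cytokinesis, was at 268, 274 and 256 CPM in siPRMT5, 113, 114 and 123 CPM in siHP1γ and 151 to 168 CPM in siNS (1.19, SE 0.07, adjusted p = 4e-13). CCNA2, the cyclin A2 gene, was at 224, 226 and 270 CPM against 101, 106 and 111 CPM, with 165 to 182 CPM in siNS (1.18, adjusted p = 5.4e-12). NDC80, a kinetochore subunit, followed at 147 to 157 CPM against 80.2 to 84.1 CPM (0.89, adjusted p = 1.3e-11). For these 3 genes the siNS libraries lay between the 2 depletions. The genes of the factors MYBL2 and FOXM1, which act with MuvB on such promoters, were the 2 lower members: MYBL2 was at 78.9 to 81.5 CPM in siPRMT5 and 154 CPM in each siHP1γ library (-0.95, adjusted p = 1.6e-09), whereas for FOXM1 the groups overlapped and its call (-0.25, adjusted p = 0.011) was lost in 3 of 14 settings.

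RefSeq windows existed for 38 of the 47 mitotic genes, and the CHR letters TTTGAA occurred on either strand in 26 of them (68.4%), beside 13.8% of all tested genes with a window. They were found in 21 of 32 higher members and in 5 of 5 members that were not called. The window of NDC80 (chr18:2571307-2571606, plus strand), which follows KIF20A and CCNA2 among the higher members by fold, is printed with its match, on the reverse strand, in capitals.
NDC80: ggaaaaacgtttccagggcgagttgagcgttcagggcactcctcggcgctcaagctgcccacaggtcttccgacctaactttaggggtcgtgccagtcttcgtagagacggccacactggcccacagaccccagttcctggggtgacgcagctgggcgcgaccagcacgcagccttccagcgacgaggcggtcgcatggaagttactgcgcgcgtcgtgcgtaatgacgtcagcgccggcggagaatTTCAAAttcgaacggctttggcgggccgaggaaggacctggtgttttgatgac

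Genes of DNA replication and the G1/S transition did not share that shift. Of 52 tested, 12 (23.1%) were higher in siPRMT5 and 14 (26.9%) lower, close to the shares of all genes, and the list's median level in single libraries was between -0.05 and 0.02 in both depletions but between 0.31 and 0.34 in siNS, on the log2 CPM scale centred on the mean of the 6 libraries. MCM6, a subunit of the replicative helicase, was at 61.7 to 69.8 CPM in siPRMT5, 95.2 to 98.0 CPM in siHP1γ and 166 to 174 CPM in siNS (-0.57), and GINS2, of the same helicase complex, differed by -0.70. RRM2, the small subunit of ribonucleotide reductase, went the other way at 126 to 134 CPM, 71.8 to 73.2 CPM and 154 to 172 CPM (0.85), as did GMNN, which encodes the licensing inhibitor geminin (0.85), and CCND1, the cyclin D1 gene (0.91, 613 to 721 CPM against 339 to 356 CPM). Of 61 DNA repair genes, 16 (26.2%) were higher and 17 (27.9%) lower, near the shares of all genes (23.4% and 25%), and 10 were higher without siHP1γ replicate 1. FANCD2, a central protein of crosslink repair, was at 21.1 to 23.4 CPM against 44.4 to 46.8 CPM (-1.03), and XPA, of nucleotide excision repair, was higher (0.73).

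Of 29 tested genes of the p53 pathway, 10 (34.5%) were higher and 7 (24.1%) lower, beside 23.4% and 25% of all genes, and 4 were lower without siHP1γ replicate 3. CDKN1A, the p21 gene, was at 31.7 to 39.5 CPM in siPRMT5, 68.8 to 70.2 CPM in siHP1γ and 46.5 to 49.6 CPM in siNS (-0.97, adjusted p = 2.5e-10). MDM2, whose product degrades p53, ran opposite, at 72.3 to 91.6 CPM against 36.7 to 37.9 CPM (1.10), and PMAIP1, the BH3-only gene NOXA, was at 135 to 171 CPM against 59.1 to 70.3 CPM (1.28). Of 15 tested genes of the BCL2 family, 4 (26.7%) were higher and 5 (33.3%) lower, beside the same shares of all genes. The higher ones included BMF, PMAIP1 and MCL1 (0.57). Among the lower ones were the survival genes BCL2L1 (-0.79, 337 to 344 CPM against 570 to 598 CPM) and BCL2L2 (-0.77).

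Genes of the ATF4 branch of the stress response had the lowest median of the lists. ATF4 is translated when eIF2α is phosphorylated and induces amino acid transporters and the enzymes that make serine, glycine, asparagine and other amino acids. Of 34 tested genes of 41 listed, 24 (70.6%, beside 25% of all genes tested) were lower in siPRMT5, 1 was higher and 9 were not called, with a median log2 fold change of -0.43. CHAC1, a glutathione-degrading enzyme, was at 4.19, 4.46 and 2.90 CPM in siPRMT5, 16.3, 17.8 and 18.4 CPM in siHP1γ and 11.1 to 14 CPM in siNS (-2.19, SE 0.16, adjusted p = 2.2e-11). SLC7A5, the large neutral amino acid transporter LAT1, was at 57.5, 54.4 and 54.9 CPM, 125, 126 and 136 CPM and 204 to 236 CPM in the same order (-1.22, adjusted p = 1.3e-12), so both depletions were below siNS and siPRMT5 was the lowest. CTH, the cystathionine gamma-lyase of cysteine synthesis, differed by -1.0. ATF4 itself, named after its values were seen, averaged 190 CPM in siPRMT5, 330 CPM in siHP1γ and 302 CPM in siNS (-0.79, adjusted p = 4.1e-10). The only higher member was DDIT4, an inhibitor of mTORC1 signalling, for which the groups overlapped (0.23, adjusted p = 0.04) and whose call was lost in 5 of 14 settings.

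The window of CHAC1 (chr15:40953221-40953520, plus strand) is printed because it holds, on the reverse strand, the letters TGATGNAA of the C/EBP-ATF response element, in capitals. These letters were found in 9 of 27 listed genes with a RefSeq window (33.3%), in 7 of 18 lower ones, and in 2.75% of all tested genes with a window.
CHAC1: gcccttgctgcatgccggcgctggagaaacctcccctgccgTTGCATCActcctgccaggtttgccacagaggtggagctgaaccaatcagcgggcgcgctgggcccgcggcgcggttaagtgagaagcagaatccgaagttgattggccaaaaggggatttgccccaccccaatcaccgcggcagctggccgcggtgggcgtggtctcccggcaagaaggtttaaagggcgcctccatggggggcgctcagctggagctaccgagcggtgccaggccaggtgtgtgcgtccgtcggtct

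Of 19 tested cytosolic aminoacyl-tRNA synthetases, 9 (47.4%) were lower and 4 (21.1%) higher, beside 25% and 23.4% of all genes. AARS1, the alanyl-tRNA synthetase, was at 123 to 136 CPM in siPRMT5 and 243 to 268 CPM in siHP1γ (-0.97, adjusted p = 1e-10), and NARS1, the asparaginyl enzyme, was higher (0.38). Of 32 chaperone genes, 11 (34.4%) were lower and 5 (15.6%) higher, and 3 were higher without siPRMT5 replicate 1, siHP1γ replicate 2 or siHP1γ replicate 3. HSPA5, the chaperone BiP of the endoplasmic reticulum, was at 428, 429 and 391 CPM in siPRMT5, 1099, 1080 and 1100 CPM in siHP1γ and 870 to 987 CPM in siNS (-1.39, SE 0.07, adjusted p = 8.7e-15). PTGES3, the HSP90 co-chaperone p23, was at 240 to 303 CPM against 99.0 to 122 CPM (1.35), with siNS at 293 to 345 CPM beside siPRMT5.

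Sterol and fatty acid genes were mostly higher in siPRMT5 than in siHP1γ, and the median level of the list in siPRMT5 was near that of siNS. Many of these genes answer to SREBP factors when cell sterols fall. Of 38 tested, 23 (60.5%, beside 23.4% of all genes tested) were higher and 3 lower, with a median of 0.30. The list's level per library was 0.13 to 0.17 in siPRMT5, -0.19 to -0.16 in siHP1γ and 0.12 to 0.25 in siNS on the centred log2 scale. ELOVL5, a fatty acid elongase, was at 432, 403 and 493 CPM in siPRMT5, 164, 170 and 176 CPM in siHP1γ and 391 to 463 CPM in siNS (1.38, SE 0.09, adjusted p = 1.1e-12). MYLIP, an E3 ligase of the LDL receptor known as a target of LXR, was at 45.9 to 56.1 CPM against 19.4 to 23.5 CPM (1.22), and here siNS, at 20 to 20.2 CPM, lay beside siHP1γ. The 3 lower members were ACLY, the ATP citrate lyase (284 to 308 CPM against 471 to 507 CPM, -0.73), ELOVL6, another elongase (-0.73), and SCAP, the SREBP escort protein (-0.32, a call lost in 1 of 14 settings). The letters TCACNCCAC of a sterol response element were found in 1 of 30 genes with a RefSeq window (3.33%), beside 1.415% of all tested genes with a window.

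Genes of the cytosolic ribosome were higher in siPRMT5 by a small amount. Of 79 tested, 43 (54.4%, beside 23.4% of all genes tested) were higher and 3 lower, with a median log2 fold change of 0.23. The libraries barely separated for this list: its level was 0.17 and 0.19 in siPRMT5 replicates 1 and 2 but -0.02 in replicate 3, next to the -0.03 of the highest of the siHP1γ libraries (lowest -0.19), and the count was 52 without siPRMT5 replicate 3 and 31 without siHP1γ replicate 3. RPS20, of the small subunit, was at 1006, 929 and 868 CPM in siPRMT5, 393, 429 and 393 CPM in siHP1γ and 901 to 1047 CPM in siNS (1.21, adjusted p = 1.4e-11), a difference beyond that of the list, and RPL22L1, a paralogue of RPL22, was lower (-0.64). Ribosomal protein genes have many processed copies, between which counting can split reads. Of 72 nuclear genes of oxidative phosphorylation, 27 (37.5%) were higher and 6 lower, and siPRMT5 replicate 3 again lay near siHP1γ: 41 were higher without it. UQCRC2, a core subunit of complex III, was lower (142 to 149 CPM against 239 to 245 CPM, -0.74). Of 73 genes of the mitochondrial ribosome, 17 (23.3%) were higher, near the share of all genes, and 8 (11%) were lower, under it (11 higher without siPRMT5 replicate 1 or siHP1γ replicate 3), although MRPS27 was at 31.3 to 33.6 CPM in siPRMT5, 108 to 112 CPM in siHP1γ and 116 to 122 CPM in siNS (-1.77, adjusted p = 4.6e-16).

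Splicing factors, many of them partners or substrates of PRMT5, mostly differed by small amounts in RNA level, more of them higher than lower in siPRMT5. Of 24 tested Sm, Lsm and snRNP assembly genes, 10 (41.7%) were higher and 2 (8.33%) lower, beside 23.4% and 25% of all genes tested. All these calls were by less than 1 on the log2 scale. COIL, the scaffold of Cajal bodies, was at 50.4 to 54.7 CPM against 29.3 to 33.4 CPM (0.75, adjusted p = 9.1e-07), and SNRPB, a core Sm protein gene, at 225 to 254 CPM against 179 to 183 CPM (0.43). GEMIN5, of the SMN complex, was lower (-0.34), as was LSM10 (-0.33), whose call was lost in 3 of 14 settings. Of 40 SR protein, hnRNP and splicing kinase genes, 15 (37.5%) were higher and 4 (10.0%) lower. SRPK1 (chr6:35832966-35921342), the kinase that loads SR proteins into the nucleus, was the exception in size, at 202, 207 and 215 CPM in siPRMT5, 479, 469 and 483 CPM in siHP1γ and 463 to 503 CPM in siNS (-1.20, SE 0.07, adjusted p = 1.2e-13). HNRNPA2B1 shares its start region with CBX3 and was at 1201 to 1268 CPM in siHP1γ and 1565 to 1610 CPM in siPRMT5 (0.36). Among 13 arginine methyltransferases and PRMT5 partners, PRMT7 and WDR77 were higher, CARM1 (-0.38) and PRMT3 (-0.56) were lower, and the call for RIOK1, a PRMT5 adaptor (0.18), was lost in 10 of 14 settings.

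Of 28 genes of HP1 proteins and H3K9 methylation, 13 (46.4%) were higher and 8 (28.6%) lower, beside 23.4% and 25% of all genes tested. The 13 include CBX3, the siRNA target itself. The largest difference after CBX3 was in LMNB1 (chr5:126776623-126837020), which encodes lamin B1 of the nuclear lamina: it was at 415, 423 and 436 CPM in siPRMT5, 110, 99.8 and 107 CPM in siHP1γ and 225 to 229 CPM in siNS, a log2 fold change of 2.01 (SE 0.07, adjusted p = 7e-18). The siNS libraries lay between, with the 2 depletions on opposite sides. LBR, the lamin B receptor that binds HP1 proteins, was at 126 to 169 CPM against 63.5 to 79.0 CPM, with 168 to 208 CPM in siNS (1.02, adjusted p = 1.7e-07). CHAF1B, a subunit of the histone chaperone CAF-1, was at 7.83 to 8.20 CPM against 16.5 to 20.4 CPM (-1.24), and EHMT1, the H3K9 methyltransferase GLP, at 68.7 to 72.8 CPM against 94.1 to 97.5 CPM (-0.42).

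Zinc finger genes with ZNF names, which include the KRAB zinc fingers that recruit HP1 through TRIM28 and cluster on chromosome 19, were higher in siPRMT5 more often than lower: 167 (38.0%) against 55 (12.5%) of 440 tested, with a median of 0.21. Over all genes tested, 23.4% were higher and 25% lower. Relative to genes of like GC content, a comparison added after seeing the data, the ZNF median was 0.18. ZNF678 was at 21.4, 24.2 and 24.7 CPM in siPRMT5 and 5.51, 5.99 and 6.30 CPM in siHP1γ, with 12 to 13.8 CPM in siNS (1.97, adjusted p = 1.2e-10), and ZNF737 at 18.8 to 25.6 CPM against 5.09 to 7.12 CPM (1.96). ZNF511 was lower (-1.06). Of 32 tested clustered protocadherin genes, 10 (31.2%) were higher and 7 (21.9%) lower (4 higher with at least 10 counts in every library). They share exons at the ends of their clusters, and counts of single members are uncertain. Of 86 listed MAGE and other cancer-testis genes, 2 passed the filter and 1 was higher.

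Long noncoding RNAs went the other way. Of 165 tested LINC genes, 58 (35.2%) were lower in siPRMT5 and 13 (7.88%) higher, beside 25% and 23.4% of all genes tested. The list median was -0.28. When at least 10 counts were asked in every library, 87 were tested, 35 were lower and the median was -0.23. With no filter, 999 were tested, 59 were lower and the median was 0.00. LINC01278 was at 12, 13.3 and 13 CPM in siPRMT5, 36.9, 31.7 and 30.2 CPM in siHP1γ and 21.3 to 26.9 CPM in siNS (-1.36, adjusted p = 2e-10), and LINC02310 at 3.76 to 4.93 CPM against 14.9 to 19 CPM (-1.99). LINC01949 and LINC01537 were higher, at 1.12 and 1.06. These genes are mostly weakly expressed, and overlapping transcripts of the other strand may add to their counts.

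**Figure D3:**
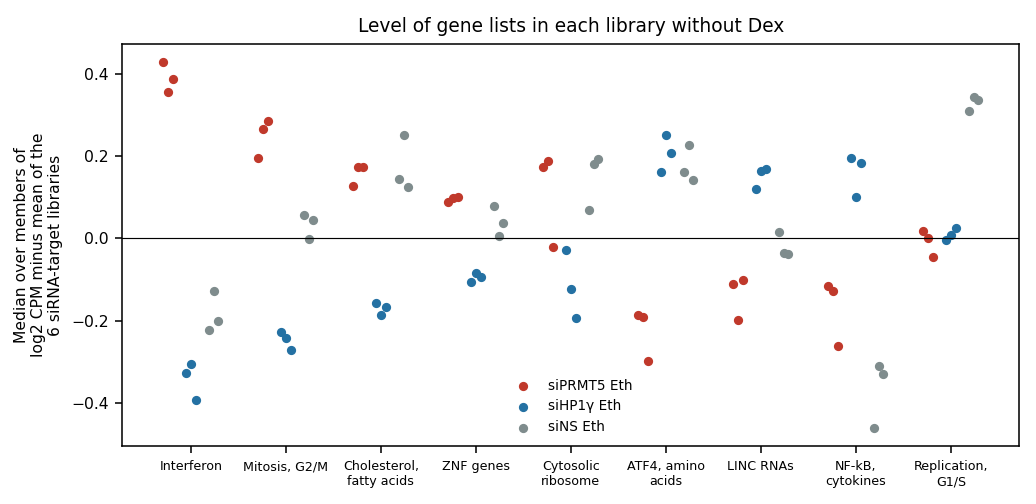
Median over list members of log2 CPM, centred for each gene on the mean of the 3 siPRMT5 and 3 siHP1γ libraries, in each of the 9 libraries without Dex. The interferon and mitosis lists are highest in siPRMT5, the cholesterol list is lowest in siHP1γ, the ATF4 list is lowest in siPRMT5, and the replication list is equal in the 2 depletions with siNS above them.

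Inflammatory and immediate early genes were mixed, with more lower than higher in siPRMT5. Of 25 tested genes of NF-kB, cytokines and chemokines, 13 (52.0%) were lower and 5 (20%) higher, beside 25% and 23.4% of all genes tested. IL1A (chr2:112773925-112784493), the interleukin 1α gene, was at 37.2, 31.8 and 31.3 CPM in siPRMT5, 135, 138 and 138 CPM in siHP1γ and 94.2 to 95.7 CPM in siNS (-2.03, SE 0.09, adjusted p = 2.3e-15). CXCL1, a neutrophil chemokine, was at 2.90 to 4.10 CPM against 11.5 to 13.4 CPM (-1.88), and TRAF1, an adaptor of TNF receptors, at 7.10 to 7.75 CPM against 12.8 to 16.4 CPM with 4.99 to 5.96 CPM in siNS (-1.02). CSF1, the macrophage growth factor gene, was higher, at 199 to 228 CPM against 115 to 122 CPM (0.84). For this list the median level of siNS was below that of both depletions, at -0.46 to -0.31 on the centred scale.

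Of 25 AP-1, EGR and MAP kinase feedback genes, 13 (52.0%) were lower and 7 (28.0%) higher, beside 25% and 23.4% of all genes tested. EGR1, an immediate early factor, was at 43.6 to 47.5 CPM in siPRMT5 and 112 to 137 CPM in siHP1γ (-1.40), ETV4, an ETS factor, differed by -1.37 and FOSL1, the FRA1 gene, by -0.89, whereas 2 inhibitors of the ERK pathway were higher: DUSP6, an ERK phosphatase, at 506 to 540 CPM against 209 to 238 CPM (1.23, adjusted p = 2.5e-14), and SPRY1 at 53.3 to 57.4 CPM against 19.4 to 24.9 CPM (1.29). The immediate early gene IER2 was higher too, at 94.1 to 109 CPM against 54.0 to 61.6 CPM (0.84, adjusted p = 2.4e-08). Of 15 EGF and FGF ligands and receptors, 7 (46.7%) were lower and 2 (13.3%) higher. The lower ones included FGF1 (-1.82) and EGFR (-0.63, 134 to 161 CPM against 215 to 238 CPM). In the TGF-β family, 15 (41.7%) were higher and 13 (36.1%) lower of 36. ID1, a target of BMP signals, was at 23.6 to 29.5 CPM against 7.66 to 10.8 CPM (1.49), and the receptor genes ACVR2B (1.31) and TGFBR3 (1.15) were higher, while the receptor gene ACVR1B (-0.95) and the matrix proteins TGFBI (-1.08) and LTBP1 (-0.98) were lower.

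Of 30 genes of the Hippo pathway, 15 were higher and 6 lower, with examples in both directions. LATS1, the kinase that inhibits YAP (112 to 139 CPM against 66.6 to 73.1 CPM, 0.84), and NF2, the upstream tumour suppressor merlin (0.71), were higher, and AXL and CCN2, targets of YAP, were lower. AXL (chr19:41219223-41261766), a receptor tyrosine kinase, was at 226, 210 and 226 CPM in siPRMT5, 762, 706 and 744 CPM in siHP1γ and 912 to 1003 CPM in siNS (-1.74, SE 0.06, adjusted p = 3.9e-17). CCN2 was at 322 to 367 CPM against 605 to 630 CPM (-0.85) and TEAD1, a DNA-binding partner of YAP, at 120 to 149 CPM against 222 to 241 CPM (-0.78). AMOTL2, also a YAP target, was higher (0.68).

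Lists of matrix and adhesion genes had calls in both directions, at shares read beside 23.4% higher and 25% lower over all genes: 13 higher (33.3%) and 11 lower (28.2%) of 39 collagens, laminins and cross-linkers, 6 and 5 of 15 integrin subunits, and 9 (33.3%) and 10 of 27 metalloproteases and plasminogen system genes. ADAMTS6 (chr5:65148738-65481920), a secreted metalloprotease, was at 70.6, 74.0 and 73.6 CPM in siPRMT5, 404, 419 and 441 CPM in siHP1γ and 411 to 438 CPM in siNS (-2.53, SE 0.07, adjusted p = 1.3e-19), the reverse of ADAMTS15, which was higher (2.23). MMP1, the interstitial collagenase, was at 6.81 to 7.51 CPM against 22.3 to 23.4 CPM (-1.67). Among integrins, ITGAV was higher (131 to 165 CPM against 68.0 to 76.7 CPM, 0.99) and ITGB1, its β1 partner, lower (375 to 393 CPM against 652 to 685 CPM, -0.80). COL1A1, a chain of type I collagen, was higher (0.90). Of 18 genes of the mesenchymal and epithelial states, 9 were higher and 3 (16.7%) lower, with a median of 0.29. The higher ones included CLDN4 (0.65), JUP (0.52) and KRT7 (0.49), whose call was lost in 3 of 14 settings. The 3 lower ones were DSP, the desmosomal desmoplakin gene (-1.20), and the repressors of epithelial genes SNAI1 (-1.06) and ZEB2 (-0.58). The mesenchymal gene VIM, also in the list, averaged 9191 unscaled CPM in siPRMT5 and 6957 in siHP1γ. CD44 averaged 713 and 717 unscaled CPM. The named genes therefore give no single direction between the 2 states. With no filter on low counts, 28 genes of this list were tested and the median was 0.002. With Dex, 3 were higher and 3 lower. Of 36 genes of glycolysis and hypoxia, 15 (41.7%) were higher, such as ADM (1.73, 43.9 to 47.9 CPM against 12.2 to 15.2 CPM), and 7 (19.4%) lower, such as the glucose transporter SLC2A1 (-1.41, 80.7 to 84.8 CPM against 211 to 224 CPM), with 4 lower without siHP1γ replicate 1.

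The same contrast was then read in the 6 libraries treated with 100 nM Dex, which share no library with the first, although both came from 1 fit and 1 normalization. With Dex, 7635 genes (49.9%) differed between siPRMT5 and siHP1γ, 3730 (24.4%) higher and 3905 (25.5%) lower. Of the 7398 genes called without Dex, 7130 (96.4%) had the same sign with Dex, and 5744 were called in both with the same sign, which is 77.6% of the calls without Dex and 75.2% of those with it. Pearson's r between the 2 sets of log2 fold changes was 0.83 over the 15298 genes, which are not independent replicates. With Dex the lists gave 29 higher and 2 lower members for the interferon list, 37 and 1 for mitosis, 22 and 4 for cholesterol, and 5 and 23 for ATF4.

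A test of the difference between the 2 contrasts found 321 genes (2.10%), 124 (0.811%) with a larger value without Dex and 197 (1.29%) with a smaller one. Of these, 53 were called in opposite directions, 40 of them lower in siPRMT5 without Dex and higher with it. CXCR4, a chemokine receptor, was at 2.58, 2.11 and 3.40 CPM in siPRMT5 and 7.85, 6.27 and 5.67 CPM in siHP1γ without Dex (-1.26), and at 7.4 to 9.97 CPM against 4.80 to 4.99 CPM with Dex (0.80), a difference of -2.06 (adjusted p = 2.2e-05). FBLN1, a matrix glycoprotein, reversed in the same way (-1.92 and 0.57). NEDD9, a scaffold of focal adhesions, did not differ past the threshold without Dex (1.93 to 2.23 CPM against 1.31 to 2.01 CPM) but was at 14.5 to 17.2 CPM against 2.54 to 2.93 CPM with it. In the other direction, CYP1B1, a cytochrome P450, was at 51.5, 50.5 and 69.1 CPM against 15.2, 19.4 and 19.2 CPM without Dex (1.67) and at 12.6 to 14.3 CPM against 10.2 to 14.1 CPM with it (0.18, adjusted p = 0.31).

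Genes of GR and its targets were then compared between the conditions. Without the ligand, 9 (32.1%) of 28 tested genes of GR and its targets were higher in siPRMT5 and 8 (28.6%) lower. With Dex, 23 were higher and 2 lower, beside 24.4% and 25.5% of all genes tested. For 18 of the 28 the difference between the contrasts passed the test, beside 2.10% of all genes tested. Several members, including IGFBP3, PLAT and CCBE1, were chosen by the study on these libraries. The list was also drawn up with earlier results of these data known. The counts, with the 18 of 28, are therefore no independent evidence of direction or of a share above that of all genes. NR3C1, the GR gene, was at 150, 166 and 186 CPM in siPRMT5 and 138, 138 and 135 CPM in siHP1γ without Dex (0.29, adjusted p = 0.0097, and 0.076 without siPRMT5 replicate 3). IGFBP3, which binds insulin-like growth factors, was at 63.3, 62.7 and 64.0 CPM against 93.5, 96.3 and 108 CPM, with 182 to 217 CPM in siNS (-0.65, adjusted p = 1.1e-07), and at 295 to 310 CPM against 183 to 194 CPM with Dex (0.68). TSC22D3, the GILZ gene, was already higher without Dex, at 40.7 to 45.9 CPM against 21.2 to 21.7 CPM (1.0), as was SGK1 (0.78). CCBE1 differed by -0.52 without Dex and 0.53 with it. PLAT, the tissue plasminogen activator gene, had -0.27 (adjusted p = 0.062) and 0.39.

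**Figure D4:**
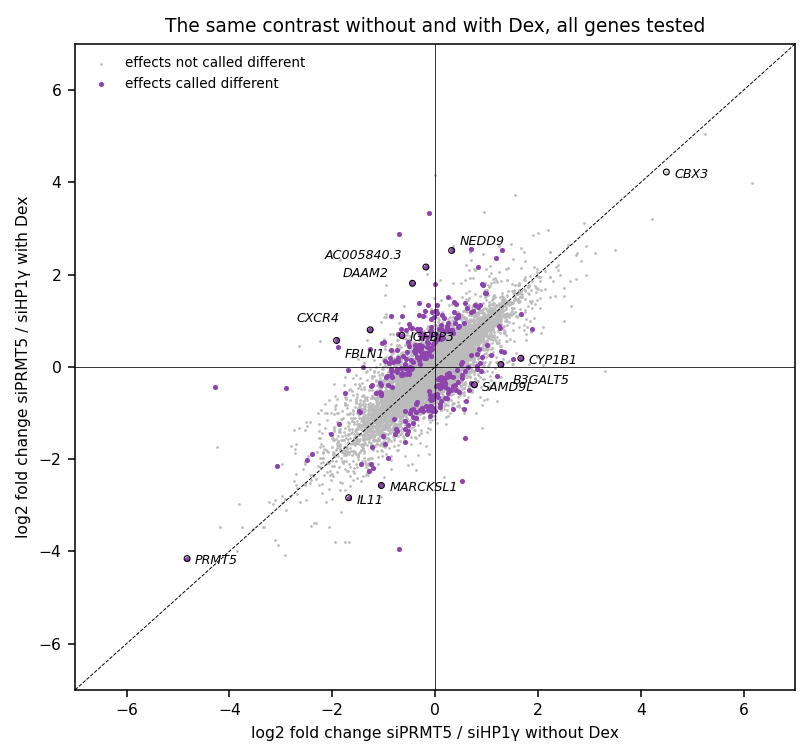
Log2 fold change of siPRMT5 over siHP1γ without Dex (horizontal) and with Dex (vertical) for the 15298 genes tested, 1 point per gene, with the 321 genes whose contrasts differ at an adjusted p under 0.05 in colour and a dashed line of equality. CBX3 and PRMT5 lie near that line at opposite ends, IGFBP3, CXCR4 and FBLN1 lie in the upper left, and CYP1B1 lies close to the horizontal axis at 1.67.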

How the data were processed

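The series holds 18 RNA-seq libraries of 1 cell line, 3 for each of 6 conditions. According to the labels and the submitters' processing notes, the authors aligned reads to hg38 with Bowtie2 2.4.2 and counted them per gene with HTSeq 0.9.1, and they used DESeq2 2.11.40.7. The deposited values used here are their raw read counts per gene symbol (60642 symbols), with no normalization. Bowtie2 is not aware of splicing, so reads across exon junctions can be lost, and the strand setting and gene annotation are not given in the sources used here. A further deposited table holds the authors' own fold changes and p-values and was not used.

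Counts were analysed in R 4.3.3 with edgeR 4.0.16: TMM scaling, filterByExpr over the 6 conditions (15298 genes), and the quasi-likelihood test on all 18 libraries with 1 mean per condition (12 residual degrees of freedom), contrasting siPRMT5 Eth with siHP1γ Eth, with Benjamini-Hochberg adjustment over all genes tested and a threshold of 0.05. The fit was tested on simulated data. CPM are TMM-scaled. DESeq2 1.42.0, other scalings and filters, the 6 libraries alone, the replicate number as a block and leaving out each library were the alternatives. Named genes were 9 fixed genes (PRMT5, CBX3, WDR77, CBX1, CBX5, NR3C1, IGFBP3, PLAT, CCBE1), the 12 most changed in each direction with a mean of at least 5 CPM and no overlap between groups, up to 3 called members per list and direction, and up to 5 per direction for the difference between Eth and Dex, all with at least 5 CPM. The members and lists were chosen with earlier results of these data known. Positions and exon overlaps came from GENCODE (hg38), in which 13500 of the 15298 genes (88.2%) were found by symbol. The comparisons by GC content and gene type were added after the data were seen. Each library held 8682992 to 10874249 counts in the 6 libraries compared, so precision is lowest for genes of few CPM. Results for a few genes are not reported here.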

Additional observations from a re-analysis of the deposited data

Results flagged for a closer look

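The values here are differences between the siPRMT5 minus siHP1γ contrast without Dex and the same contrast with Dex, on the log2 scale, each past an adjusted p of 0.05 in edgeR's quasi-likelihood test of that difference. They were listed because the contrast changed with Dex, 3 libraries a group, for 321 genes in all, and for these genes among those the text names.

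Negative differences were found, among GR targets and other genes, for IGFBP3 (-1.33), PLAT (-0.656), CCBE1 (-1.05), TSC22D3 (-0.604), SGK1 (-0.55), ERRFI1 (-0.569), DDIT4 (-0.653), IL1A (-0.572), TGFBI (-0.73), LTBP1 (-1.11), CCN2 (-0.421), MCL1 (-0.376) and SFXN2 (-0.922). The sign does not give the size of either effect: IL1A was at -2.03 without Dex and -1.46 with it, the larger effect being without Dex. FBLN1 (-2.49), AC005840.3 (-2.34), DAAM2 (-2.25), NEDD9 (-2.20) and CXCR4 (-2.06) had the lowest values among genes that averaged 5 CPM or more over the 12 libraries with and without Dex. NEDD9 and DAAM2 reached that mean through the Dex libraries, and the call for DAAM2 was lost in 2 of 17 settings. PRMT5 itself differed by -0.667, and siPRMT5 libraries held 7.41 CPM on average without Dex and 10.5 CPM with it.

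Positive differences were found for MARCKSL1 (1.53), CYP1B1 (1.48), B3GALT5 (1.23), IL11 (1.15), SAMD9L (1.15), EGLN3 (0.944), NDRG1 (0.753), ADAMTS12 (0.532), CSF1 (0.456), TNFAIP2 (0.435) and DUSP6 (0.339). MARCKSL1 was lower in siPRMT5 both without Dex (-1.04) and with it (-2.57), and so was IL11 (-1.68 and -2.84). The calls for SAMD9L and B3GALT5 were lost in 9 and 4 of 18 settings.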

How the results depend on the processing

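Of 15298 genes, 7398 were called without Dex, 3334 when a fold of at least 1.5 was also asked and 1386 at a fold of at least 2. Other scalings, filters and tools gave 6654 to 7703, and leaving out 1 library gave 6466 to 6685. With Dex the same ranges were 5855 to 7684 and 6853 to 7442, and for the difference between them 315 to 350 and 236 to 384. Library size alone as scaling moved the split from 3580 higher and 3818 lower to 3132 and 4176. The log2 fold change without 1 library was -4.91 to -4.69 for PRMT5 and 4.45 to 4.55 for CBX3. No called result changed direction. List medians near 0 did: that of the GR list (0.02) was -0.02 with library size alone, of replication (0.02) at lowest -0.02, of metalloproteases (-0.07) at highest 0.02, of collagens (-0.00) 0.04, of integrins (-0.06) 0.36 and of protocadherins (-0.02) 0.51, the last with no filter on low counts.

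A block for the replicate number gave 7417 calls without Dex, 7684 with it and 315 for the difference. Correlations between siPRMT5 and siHP1γ libraries of the same number, taken on deviations from the group means, were 0.024, 0.022 and 0.12 without Dex. With Dex they were -0.13, -0.03 and 0.14, and not every library correlated best with its own number. Whether libraries of the same number share a culture or batch cannot be told from these values.

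The ribosomal count of 43 was 31 to 52 without 1 library, the oxidative phosphorylation count of 27 was 23 to 41, and the count of 58 lower LINC genes was 49 to 54, and 35 with at least 10 counts in every library. Without 1 library the interferon (31 to 34), mitosis (39 to 42), cholesterol (22 to 24) and lower ATF4 (21 to 24) counts moved less, and interferon was at 29 with at least 10 counts in every library. Counting depth limits genes of few CPM most. The groups hold 3 libraries each, from 1 cell line and 1 siRNA pool per target.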

Other observations

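Across the 13500 genes with an annotation, the direction of the difference varied with base composition, a breakdown chosen after seeing the data. In the fifth of genes with the lowest GC content, 34.9% were higher in siPRMT5 and 18.5% lower, and in the fifth with the highest GC content 15.4% were higher and 30.4% lower, with medians of 0.11 and -0.11 on the log2 scale. With Dex the medians were 0.09 and -0.14. The mean GC content weighted by CPM was 46.95 to 47.36% in the siPRMT5 libraries, 47.42 to 47.63% in siHP1γ and 46.66 to 47.35% in siNS, so the 2 depletions did not overlap in this measure. Taken relative to genes of like GC content, the list medians were 0.73 for interferon (0.68 before), 0.46 for mitosis (0.51), 0.35 for cholesterol (0.30) and -0.38 for ATF4 (-0.43).

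Of 558 annotated long noncoding RNAs, 41 (7.35%) were higher in siPRMT5 and 199 (35.7%) lower, beside 26.0% and 27.0% of 11666 protein-coding genes. Among the 181 whose exons overlap no other gene, 9 were higher and 73 lower. Their summed level over all 558 genes was 4785 to 5086 CPM in siPRMT5, 5933 to 5991 CPM in siHP1γ and 5851 to 6356 CPM in siNS. Of 1091 processed pseudogenes, 20.1% were higher and 10.1% lower.

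ZNF genes on chromosome 19 were higher in 90 and lower in 19 of 209, and ZNF genes elsewhere in 75 and 36 of 225. Of the other 686 genes of chromosome 19, 128 (18.7%) were higher and 165 (24.1%) lower. The groups differ in base composition. Median GC content was 42.4% for ZNF genes on chromosome 19, 44.8% for those elsewhere and 60.5% for the other genes of chromosome 19. A part of GC content in these shares was not tested.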
